A study of Homo sapiens with 12 samples.

Results

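The genes described here are those of the urea cycle enzymes CPS1, OTC, ASS1, ASL and ARG1, and NAGS, which makes the N-acetylglutamate that CPS1 needs. Described with them are the histone marks called around these 6 genes in HepG2, an established human cell line derived from a hepatocellular carcinoma. Members were chosen by position and not by a measured value. They are the peaks of the pooled lists that reach within 30 kb of the start of a gene, or, for CPS1, within 30 kb of its whole span. This gave 93 of the 273551 peaks on chromosomes 1 to 22 and X, namely 22 of 66513 H3K27ac peaks, 61 of 182592 H3K4me1 peaks and 10 of 24446 H3K4me3 peaks.

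The series used histone marks of these cells to narrow down variants likely to be causal. The cells were untreated and grown in standard serum-containing medium. Chromatin immunoprecipitation with sequencing (ChIP-seq) was done on 3 libraries each for H3K27ac, H3K4me1 and H3K4me3, and 3 further libraries were controls. The control titles say input, but their antibody label is an anti-mouse immunoglobulin, and no control values were analysed here. Each mark has 1 list made from its pooled libraries, so depth and the spread between replicates are unknown and no difference is tested. All samples are of 1 transformed line, and a called peak does not measure RNA or enzyme.

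The urea cycle is the main route by which liver disposes of ammonia. CPS1 joins ammonia and bicarbonate into carbamoyl phosphate in the mitochondrion, and it works only in the presence of N-acetylglutamate, which NAGS makes. OTC then forms citrulline, ASS1 forms argininosuccinate in the cytosol, ASL cleaves it into arginine and fumarate, and ARG1 releases urea and returns ornithine to the cycle. ASS1 and ASL also serve arginine synthesis in many other tissues, whereas CPS1, OTC and ARG1 are enriched in liver. H3K4me3 is typical of active and poised promoters, H3K27ac of active promoters and enhancers, and H3K4me1 of enhancers and promoter flanks. HepG2 cells are known as poor producers of urea.

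The bases just before each start are shown because CG content separated ASL, ASS1 and NAGS from CPS1, OTC and ARG1, and the marks at the starts are set beside it further on. Sequences are from RefSeq (GRCh38.p14, + strand), matched by symbol for 6 of 6 genes. They lie at chr2:210477435-210477684 for CPS1, chrX:38352354-38352603 for OTC, chr9:130444457-130444706 for ASS1, chr7:66075569-66075818 for ASL, chr6:131572976-131573225 for ARG1 and chr17:44004372-44004621 for NAGS. These positions belong to another build than the peaks and were not compared with them. Each run gives 250 bases, 5′ to 3′, ending at the base before the start. Capitals mark CG dinucleotides and the letters TATAAA.
ASL: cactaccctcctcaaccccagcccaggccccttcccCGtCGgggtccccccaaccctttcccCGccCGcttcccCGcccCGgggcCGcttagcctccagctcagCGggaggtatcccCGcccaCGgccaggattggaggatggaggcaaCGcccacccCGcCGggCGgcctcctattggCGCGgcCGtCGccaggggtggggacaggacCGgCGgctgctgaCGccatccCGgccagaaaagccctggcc
ASS1: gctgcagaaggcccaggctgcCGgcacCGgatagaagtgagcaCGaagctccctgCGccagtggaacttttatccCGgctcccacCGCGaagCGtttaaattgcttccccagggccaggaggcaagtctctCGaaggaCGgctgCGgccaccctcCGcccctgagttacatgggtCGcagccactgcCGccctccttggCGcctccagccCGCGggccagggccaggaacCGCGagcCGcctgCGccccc
NAGS: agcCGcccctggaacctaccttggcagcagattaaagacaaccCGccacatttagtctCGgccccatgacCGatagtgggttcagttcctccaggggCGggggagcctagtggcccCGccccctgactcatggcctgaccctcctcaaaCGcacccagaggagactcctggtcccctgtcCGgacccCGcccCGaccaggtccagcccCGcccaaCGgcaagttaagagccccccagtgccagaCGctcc
CPS1: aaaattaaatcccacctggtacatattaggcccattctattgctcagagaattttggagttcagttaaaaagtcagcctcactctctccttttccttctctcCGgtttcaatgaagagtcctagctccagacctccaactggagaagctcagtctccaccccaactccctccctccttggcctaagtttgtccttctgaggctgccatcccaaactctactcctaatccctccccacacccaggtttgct
OTC: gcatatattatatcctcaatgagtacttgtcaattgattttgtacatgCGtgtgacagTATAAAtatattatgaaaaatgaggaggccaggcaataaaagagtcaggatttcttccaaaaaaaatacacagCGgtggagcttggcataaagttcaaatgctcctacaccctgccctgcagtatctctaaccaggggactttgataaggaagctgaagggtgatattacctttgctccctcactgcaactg
ARG1: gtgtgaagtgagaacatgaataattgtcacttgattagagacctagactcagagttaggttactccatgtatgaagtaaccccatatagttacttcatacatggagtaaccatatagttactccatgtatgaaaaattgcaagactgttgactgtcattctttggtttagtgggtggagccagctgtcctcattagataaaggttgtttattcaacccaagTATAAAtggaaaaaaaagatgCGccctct

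Counted over 300 bases, from 250 before the start to 50 from the start onward, ASL had 30 CG dinucleotides, ASS1 29 and NAGS 15. Their G and C content was 74.0%, 71.7% and 64.3%. OTC had 3 CG dinucleotides, and ARG1 and the first RefSeq start of CPS1 had 1 each, with a G and C content of 41.7%, 40.0% and 45.3%. Among 35116 RefSeq promoters the median was 14 CG dinucleotides, so NAGS sat close to the middle, ASL and ASS1 above it and the other genes far below. ASL had more CG dinucleotides than 77.6% of the listed promoters, and ARG1 more than 3.96%. RefSeq lists 3 starts for CPS1, and the other starts, which lie further into the gene, had 3 CG dinucleotides each. The second listed start of ASS1 had 29.

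Short motifs were searched on both strands of the same 300 bases. TATAAA occurred once in OTC, 192 bp upstream of the listed start, and once in ARG1, 29 bp upstream, against 11.5% of all listed promoters. The listed start of OTC is not the first base of its gene record, whereas that of ARG1 is. The GC box letters CCGCCC occurred 5 times in NAGS, 4 times in ASL and 2 times in ASS1, and in none of CPS1, OTC and ARG1, against 45.0% of promoters with at least 1. None of the 6 windows held TTGCNNAA or its subset TTGCNCAA (C/EBP), TGTTTAC or TGTTTGC (FOXA), GTTAAT (HNF1), CAAAGTCCA (HNF4A) or AGGTCA (nuclear receptors), nor the full HNF1 motif. The spelled-out letters were found in 10.5%, 2.61%, 3.42%, 3.89%, 6.88%, 0.384% and 13.8% of all listed promoters. A match or its absence describes these letters in this window and nothing about binding.

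**Figure D1:**
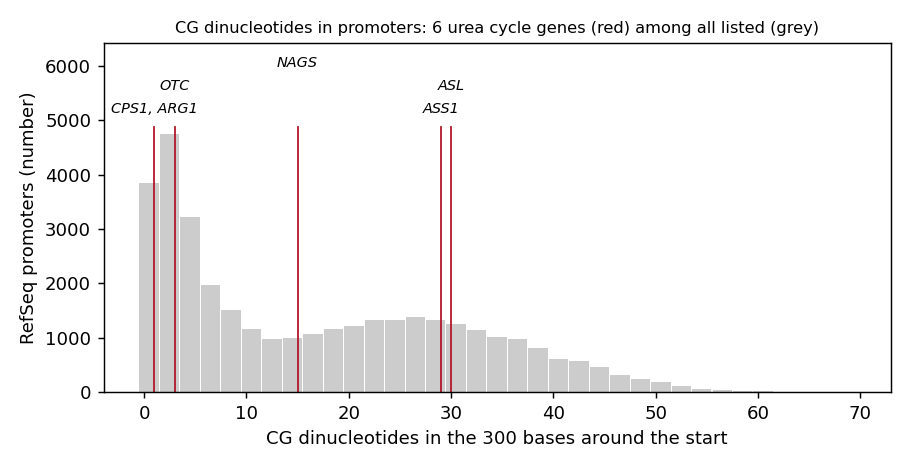
Number of CG dinucleotides (x axis) in the 300 bases around the start for 35116 RefSeq promoters (grey bars, number of promoters on the y axis) and for the 6 urea cycle genes (red lines). ASL and ASS1 lie at 30 and 29, NAGS at 15, OTC at 3, and CPS1 and ARG1 at 1.

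At the gene starts, H3K4me3 and H3K27ac were called for the same 4 genes and for neither of the other 2. A peak of each mark reached within 1000 bp of the start of CPS1, ASS1, ASL and NAGS. OTC and ARG1 had neither there, and had H3K4me1 alone. Not all peaks that reached a start had their summit within 1000 bp of it. In CPS1 the summits lay 1233 bp (H3K4me3) and 1158 bp (H3K27ac) upstream, and in NAGS that of H3K27ac lay 2378 bp upstream. The share of all gene starts with both marks within 1000 bp was not computed. Whether the count of 4 genes is usual therefore cannot be told. All positions of peaks are in GRCh37, counted from 1, and the start is the base the selection used for each gene. Levels are the authors' signal values, set against other peaks of the same list by their percentile, the share of the list with a lower value. Whether a peak lies in an exon or an intron was not analysed here.

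ASL, the argininosuccinate lyase gene (start at chr7:65540776), had the strongest H3K4me3 at a start among the 6. Its peak ran from chr7:65540269 to 65542674, with a signal value of 53.4, above 88.6% of the H3K4me3 list. H3K27ac covered the start from 445 bp upstream to 2663 bp downstream, with a signal value of 19.3 at percentile 87.3. The summits of the 2 marks lay 374 and 275 bp downstream of the start. H3K4me1 stood on both sides, at 3.86 (percentile 60.9) from 1465 to 612 bp upstream and at 5.98 (percentile 88.0) from 448 to 2694 bp downstream. The start itself lay in the gap between them.

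ASS1, which encodes the argininosuccinate synthase that joins citrulline and aspartate (start at chr9:133320094), showed the same arrangement with more marked chromatin downstream. The H3K4me3 peak at chr9:133319613-133322493 had a signal value of 44.7 (percentile 78.5) and its summit 489 bp downstream of the start. H3K27ac began 44 bp downstream of the start and ran to 4332 bp, with a signal value of 16.8 (percentile 85.3), so ASS1 was the only 1 of the 4 genes whose start base was not inside the acetylated peak. An H3K4me1 peak of 7.33 (percentile 94.4) ended 108 bp upstream of the start. Another H3K4me1 peak, 8638 bp wide, began 1132 bp downstream and had a signal value of 12.6, above 99.8% of its list. It was the strongest H3K4me1 peak of all 61.

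NAGS, the gene of the N-acetylglutamate synthase (start at chr17:42082032), had the widest acetylated peak at a start. This H3K27ac peak, chr17:42078148-42084412, was 6265 bp wide, with a signal value of 34.3 (percentile 95.6). H3K4me3 covered the start from 1484 bp upstream to 2362 bp downstream with a signal value of 38.9 (percentile 71.7). Here the summits of the marks lay apart, H3K4me3 at 419 bp downstream of the start and H3K27ac at 2378 bp upstream, where a weaker H3K4me3 peak of 4.87 (percentile 33.2) had its summit at 2433 bp. H3K4me1 stood on both sides of the start, at 7.95 (percentile 96.1) from 6246 to 627 bp upstream and at 7.05 (percentile 93.4) from 527 to 4202 bp downstream. The strongest H3K4me1 peak of the window, of 8.53 (percentile 97.2), began 28113 bp upstream. The gene next to NAGS on its upstream side in RefSeq is PYY, which runs in the opposite direction. Which of these starts the acetylation belongs to cannot be told from the lists.

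CPS1, the gene of the entry enzyme (span chr2:211342406-211543831), carried its only H3K4me3 peak at the outermost start, and mostly upstream of it. The peak at chr2:211340276-211343300 had a signal value of 32.4 (percentile 65.0), the lowest signal value of the 4 genes at a start, and its summit lay 1233 bp upstream. H3K27ac in the same place had a signal value of 12.9 (percentile 81.2), also the lowest signal value of the 4, with its summit 1158 bp upstream. These orders turn with the ranking. By −log10 p-value the H3K4me3 peak of CPS1 was at percentile 81.2, above those of NAGS (79.3) and ASS1 (72.2), and its H3K27ac peak at 87.1 was above that of ASS1 (83.6). The neighbour on that side in RefSeq is LANCL1, a gene on the opposite strand. Its start was not placed in GRCh37, so these peaks cannot be assigned to either gene. No further H3K4me3 peak was called over the remaining span or in the 30 kb beyond it. The start used here is the outermost, and the other starts RefSeq lists for CPS1 were not placed in GRCh37, so which of them the marks inside the gene lie close to was not analysed.

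OTC, the gene of the enzyme that makes citrulline (start at chrX:38211736), had no H3K4me3 or H3K27ac peak within 1000 bp of the start used here. The only promoter RefSeq lists for OTC does not begin at the first base of its gene record, and other starts of OTC were not placed in GRCh37. The nearest H3K27ac ended 7507 bp upstream and the nearest H3K4me3 24408 bp upstream. Within 1000 bp there were only 2 small H3K4me1 peaks, of 2.43 (percentile 10.8) from 961 to 665 bp upstream and 2.59 (percentile 17.3) from 47 to 361 bp downstream. They were 297 and 315 bp wide, against a median of 696 bp for the H3K4me1 list.

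ARG1, the gene of the liver arginase (start at chr6:131894344), had the least marked window. It contained 0 H3K27ac peaks, 0 H3K4me3 peaks and 2 H3K4me1 peaks. The first, chr6:131894500-131896105, began 156 bp downstream of the start with a signal value of 4.40 (percentile 71.3) and a width of 1606 bp. The second had a signal value of 2.93 (percentile 32.8) and began 2020 bp downstream. The nearest H3K4me3 and H3K27ac peaks on either side lay 53348 and 53983 bp downstream of the start, with signal values of 32.9 (percentile 65.4) and 15.2 (percentile 83.7). MED23, a Mediator subunit gene on the opposite strand, overlaps ARG1 in RefSeq, and the starts of neighbouring genes were not placed against these peaks.

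**Figure D2:**
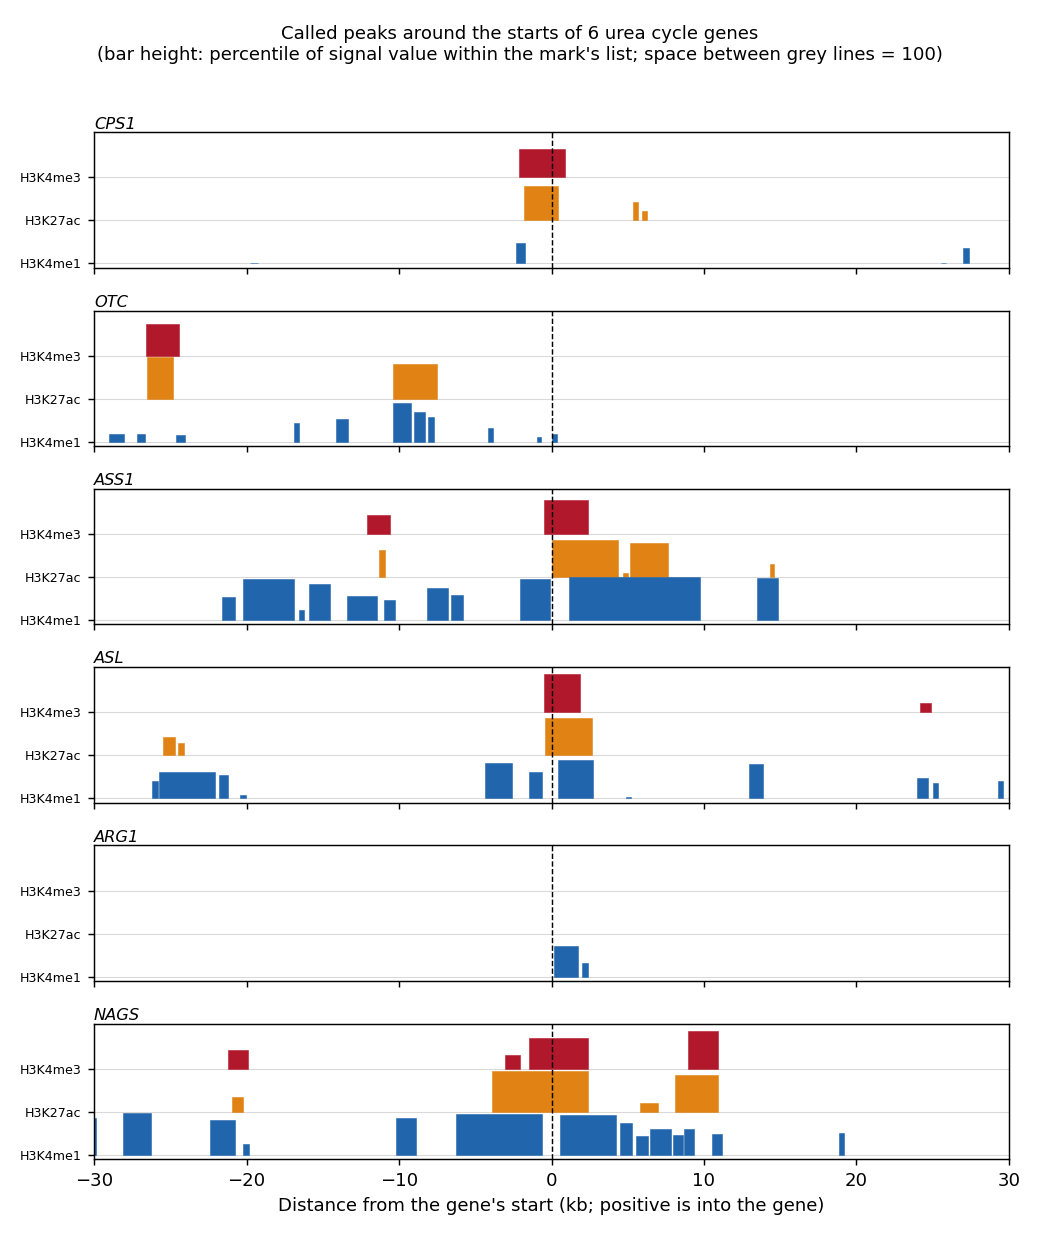
Called H3K4me3 (red), H3K27ac (orange) and H3K4me1 (blue) peaks from 30 kb before to 30 kb after the start of each gene (x axis, kb), with bar height giving the percentile of the signal value in the mark's list. Red and orange bars touch or adjoin the dashed start line in CPS1, ASS1, ASL and NAGS, while OTC has them only at 7507 bp or more upstream and ARG1 not at all; peaks under about percentile 3 are hardly visible.

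Among fixed stretches of the chromosomes, an ARG1-like set of marks was not rare. How often windows centred on gene starts show it was not computed. Of 50585 stretches of 60 kb over chromosomes 1 to 22 and X, 18.0% held H3K4me1 and neither other mark, although these stretches include regions without genes and unassembled sequence. H3K27ac was present in 34.9% of the stretches, H3K4me3 in 28.2% and H3K4me1 in 56.1%. Of the 5 gene windows of that size, that is all but CPS1, 4 held H3K27ac, 4 held H3K4me3 and 5 held H3K4me1. Both ARG1 peaks had no peak of another mark within 30 kb, as had 3 of the 11 in the CPS1 window and none of those of the other genes. These 5 of 61 (8.20%) compare with 11.1% of the H3K4me1 list, so the share itself sets the members apart by little.

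CG content and the marks at the start used here went together in all genes but CPS1. ASL, ASS1 and NAGS, with 15 or more CG dinucleotides, had H3K4me3 over the start with a summit 374 to 489 bp downstream. OTC and ARG1, with 3 or fewer, had none within 1000 bp, where the CG count of OTC is that of its listed promoter, which was not placed against the peaks. CPS1, with 1, had H3K4me3 over its first start, with the summit 1233 bp upstream, on the side of LANCL1. That peak cannot be assigned to either gene, and the listed promoter of LANCL1 had 11 CG dinucleotides. This is a description of 6 genes and was not tested.

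Around H3K4me3 the H3K4me1 peaks left a gap. In ASS1, ASL and NAGS the gap that held the H3K4me3 summit at the start was 1239, 1059 and 1153 bp wide. An uncovered start base was not particular to these genes, since H3K4me1 covered it in 0 of the 6, OTC and ARG1 included. Of the 10 H3K4me3 summits near the 6 genes, 7 lay outside H3K4me1 with an H3K4me1 peak within 2000 bp on both sides, compared with 40.5% of the H3K4me3 list. That list, unlike the members, was not chosen by nearness to genes. The peak at the CPS1 start had H3K4me1 on 1 side only, as had 14.0% of the list. There, an H3K4me1 peak of 3.39 (percentile 48.7) ended 489 bp to the left of the summit and the next on the right began 26781 bp away. The remaining 2 summits, both of weak peaks with signal values of 4.87 and 2.98, lay inside H3K4me1.

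**Figure D3:**
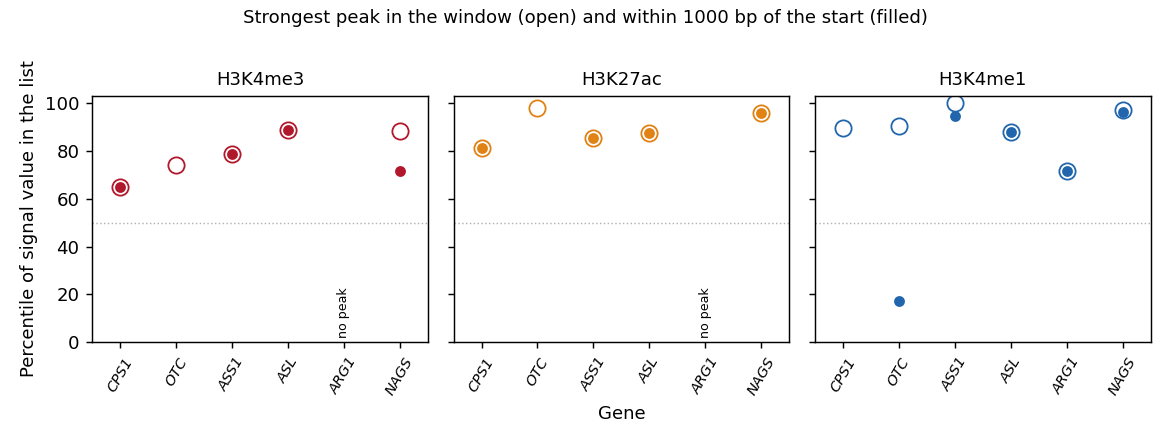
Percentile of the signal value within its own list (y axis) of the strongest peak in the window of each gene (open circles) and of the strongest peak within 1000 bp of the start (filled circles), by mark. Filled circles for H3K4me3 and H3K27ac are present for CPS1, ASS1, ASL and NAGS, and OTC has a filled circle only for H3K4me1, at percentile 17.3.

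H3K27ac peaks that did not overlap H3K4me3 were strongest upstream of OTC and inside ASS1. H3K27ac peaks that overlap H3K4me1 without H3K4me3 are termed enhancer-like after their marks, which does not show what they act on. Of the 22 H3K27ac peaks, 11 (50%) were of this kind, against 59.8% of the list, and 8 (36.4%) overlapped H3K4me3, against 31.7%. The remaining 3, all in CPS1, overlapped neither methylation. The enhancer-like count rests on the settings. It was 7 where overlap was judged within 200 bp of the summits, 7 with 30 kb around the CPS1 start only, and 4 in the stronger 50% of each list.

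The OTC peak, chrX:38201332-38204229, began 10404 bp upstream of the start, was 2898 bp wide and had a signal value of 12.7. That is above 95.3% of the 39769 enhancer-like H3K27ac peaks and above 81.0% of the whole H3K27ac list. It overlapped 3 H3K4me1 peaks with signal values of 6.37 (percentile 90.4), 4.23 (percentile 68.5) and 3.73 (percentile 57.9). OTC thus combined an enhancer-like region that was strong by signal value within its class with a start at which neither H3K4me3 nor H3K27ac was called. The other acetylated peak of the window, with a signal value of 43.1 (percentile 97.8), lay over the H3K4me3 peak at chrX:38185174-38187328 (signal value 41.2, percentile 74.2). The upstream neighbour of OTC in RefSeq is RPGR, which runs in the opposite direction.

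The corresponding ASS1 peak, chr9:133325255-133327726, began 5161 bp downstream of the start. Its signal value of 11.5 was above 94.3% of enhancer-like peaks and 79.4% of the whole H3K27ac list, and its summit lay at 6251 bp. By −log10 p-value it ranked above the OTC peak, at percentile 81.1 of the H3K27ac list against 74.6. The summit of the wide H3K4me1 peak lay at 6299 bp, inside the same acetylated region. The other enhancer-like peaks in the ASS1 window were weak, with signal values of 1.86 and 2.26. The first of these, at 4700 to 4999 bp, lay between the stronger peak and the acetylated peak at the start, which ended at 4332 bp. The acetylated peaks from the start to 7632 bp overlapped the same wide H3K4me1 peak, which also overlapped H3K4me3. The stronger peak thus stood close to the acetylation at the start, and whether they are separate regions was not tested.

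CPS1 had 4 enhancer-like peaks, all inside the gene. The strongest were chr2:211403391-211405436 and chr2:211405573-211406772, with signal values of 4.91 and 4.14, above 79.3% and 74.2% of their class. In the whole H3K27ac list they were at percentiles 63.7 and 59.5. Both overlapped the same H3K4me1 peak, 3729 bp wide, with a signal value of 6.20 (percentile 89.4). The pair lay 60985 to 64366 bp into the span, and a further enhancer-like peak of 2.51 began 70857 bp into it. The fourth, of 1.94, began at 46374 bp. The 3 acetylated peaks without methylation, at 5323, 5939 and 100394 bp, had signal values of 2.70, 2.11 and 2.63, each below the list's median of 3.15.

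**Figure D4:**
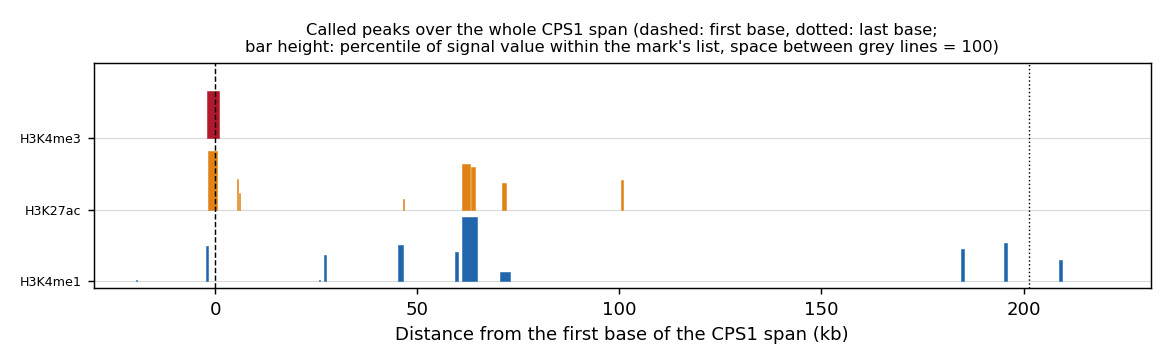
Called peaks over the CPS1 span and 30 kb to either side (x axis, kb from the first base), with bar height giving the percentile of the signal value within each mark's list. The only H3K4me3 peak (red) lies at the first base, and H3K27ac (orange) and H3K4me1 (blue) recur together between 60985 and 72052 bp.

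The enhancer-like peaks of ASL and NAGS had signal values below the H3K27ac list's median of 3.15. Those of ASL, at 2.67 and 2.22, were above 51.5% and 34.2% of the enhancer-like class and lay 25502 to 24132 bp upstream of the start, under an H3K4me1 peak of 3.90 (percentile 62.0). The single NAGS peak of this kind had a signal value of 2.05, above 23.9% of the class. NAGS instead had further H3K4me3 peaks. The strongest H3K4me3 of its window was not at its start but 8958 to 10942 bp downstream, with a signal value of 53.1 (percentile 88.3), and lay over H3K27ac of 18.2 (percentile 86.5). The next gene downstream in RefSeq is TMEM101. Another H3K4me3 peak, of 8.12 (percentile 42.8), had its summit 20573 bp upstream.

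Of the 93 peaks 61 were H3K4me1, much as 182592 of 273551 were in the lists. H3K4me1 covered 37.7% of the ASS1 window, 33.2% of the NAGS window, 20.8% of the ASL window, 10.7% of the OTC window, 4.45% of the CPS1 window and 3.29% of the ARG1 window, against 6.47% of the chromosomes as a whole. The CPS1 window is 261 kb long and spans the gene, while the others are 60 kb around a start. Counts are therefore compared per length, which does not make these windows alike. With 30 kb around the CPS1 start only, H3K27ac peaks over all genes numbered 17 instead of 22, and H3K4me1 peaks 54 instead of 61. The place of CPS1 in these orders thus rests on a window of another kind. H3K4me1 peaks numbered 2.33 per 10 kb in NAGS, 2.00 in ASL, 1.83 in both ASS1 and OTC, 0.421 in CPS1 and 0.333 in ARG1, against 0.602 in the list. H3K27ac covered 18.3% of the NAGS window, 12.9% of the ASS1 window, 7.68% of the OTC window, 7.10% of the ASL window, 3.04% of the CPS1 window and none of the ARG1 window, against 3.04% of the chromosomes. The windows were chosen by nearness to genes, whereas the values set against them span whole chromosomes, including regions without genes and unassembled sequence. These comparisons are therefore not of like with like. With no replicates the values have no error, and whether neighbours in the orders differ was not tested.

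Over all members, the median signal value was 3.42 for H3K27ac and 3.52 for H3K4me1, against 3.15 and 3.42 in the full lists. For H3K4me3 it was 35.6 over 10 peaks, against 13.3. The lowest was the peak of 2.98 (percentile 20.7) in the ASL window, 24143 bp downstream of the start, which was also the only H3K4me3 member of the 10 that did not overlap H3K27ac. The other 9 did, against 77.5% of the list. The members were chosen by nearness to genes and the list was not, so these H3K4me3 comparisons are not of like with like. Of the 61 H3K4me1 peaks, 35 (57.4%) overlapped neither other mark, against 61.6% of the list, so in this respect the members resembled the list.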

How the data were processed

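The 12 libraries comprised 3 each of H3K27ac, H3K4me1, H3K4me3 and control. Peaks were called with MACS2 on hg19 (GRCh37), per the submitters' processing notes. Its version, the threshold, the aligner and the use of the controls are not given in the sources used here. Going by their names, the 3 deposited lists pool the replicates. The deposited signal value of each peak is the authors', and the sources do not state its reference. The −log10 p-values and −log10 q-values were deposited by the authors beside it, with a lowest −log10 p-value of 2.00, 2.00 and 2.03 in the H3K27ac, H3K4me1 and H3K4me3 lists.

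Peaks on chromosome Y (73, 163 and 35 in the same order) were left out. Peaks were taken where at least 1 bp lay in a window, and marks overlapped where they shared at least 1 bp. Gene starts were those of the selection rule. The named genes are all 6 members, each with its strongest peak per mark, the peaks within 1000 bp of its start and its strongest enhancer-like peak, with other peaks of the windows added as description. Members, lists and alternatives were chosen with earlier results of these data known. An annotation of GRCh37 was not used here, so other genes of the pathway, such as transporters, were not analysed. RefSeq tables of GRCh38.p14 gave sequences and the names and order of neighbours only. Python 3.11.15, numpy 2.4.6, pandas 2.3.3 and matplotlib 3.10.9 were used, and the overlap code was tested on simulated regions.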

Additional observations from a re-analysis of the deposited data

How the results depend on the processing

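Values of single libraries and controls were not used here, so depth and replicate spread are unknown and an uncalled mark may be present below the threshold of the lists. No paired analysis was possible because each list pools its libraries. Over 7 counts, 41 alternative values were computed, and 30 stayed within 1.5 times the reported count. The number of genes with H3K4me3 within 1000 bp of the start was 4 under each of its 5 alternatives, and the number with H3K27ac was 4 except where the peak had to contain the start base, which gave 3 because the ASS1 peak begins just past it.

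The other counts followed the window and the threshold, which alter them by construction. A window of 10 kb gave 34 H3K4me1 and 6 H3K4me3 peaks, and a window of 100 kb gave 62 H3K27ac, 167 H3K4me1 and 23 H3K4me3 peaks. The stronger 50% of each list gave 11 H3K27ac, 32 H3K4me1, 6 H3K4me3 and 4 enhancer-like peaks. Enhancer-like peaks numbered 7 where overlap was judged within 200 bp of the summits, and 7 with 30 kb around the CPS1 start only. Ranking by −log10 p-value in place of signal value moved the 16 percentiles of strongest peaks by between a rise of 16.3 (H3K4me3 of CPS1) and a fall of 11.6 (H3K4me3 of OTC). Ranking within the chromosome moved them by at most 5.23.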

Other observations

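The closest peaks past the 30 kb limit lay at distances that differed between the genes. For ASS1, the closest H3K27ac peak outside lay 52.9 kb downstream of the start, was 4247 bp wide and had a signal value of 38.8 (percentile 96.9), stronger than any H3K27ac peak inside its window. For ASL, an H3K4me3 peak of 15.5 (percentile 52.2) lay 772 bp past the upstream limit, with an H3K27ac peak of 2.32 at 1328 bp past it. For NAGS, an H3K27ac peak of 9.19 (percentile 75.8) lay 703 bp past the upstream limit, whereas an H3K4me1 peak of 5.59 crossed that limit and was counted. For OTC, the closest H3K4me1 lay 42842 bp, the closest H3K27ac 43735 bp and the closest H3K4me3 101636 bp past the upstream limit. CPS1 had its closest outside H3K27ac peak 254729 bp and its closest H3K4me3 peak 222018 bp past the limits of its window. For ARG1, an H3K4me1 peak of 4.21 (percentile 68.0) lay 3706 bp past the upstream limit. Its closest H3K4me3 and H3K27ac peaks lay 23348 and 23983 bp past the downstream limit.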
